A study of Mus musculus with 23 samples.

Results

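MERP tumours are mouse medulloblastomas (MBs) of the Sonic hedgehog type, and they were compared here with granule neuron precursors (GNPs), the cells from which such tumours arise. The comparison used 8 of the 23 arrays of the series, chosen by their sample titles: 5 MERP tumours and 3 GNP samples. The labels describe the MERP tumours as cerebellar tumours that formed after *Ptch1* was disrupted postnatally in cells that express *Math1*, another name for *Atoh1*, and the study gives the genotype as *Atoh1-CreER*;*Ptch1* fl/fl. In this model the *Atoh1* promoter drives a tamoxifen-activated Cre recombinase, so both floxed *Ptch1* alleles can be lost in *Atoh1*-expressing cells, whereas other cells of the tumour piece keep them. The GNPs were non-neoplastic cells isolated between postnatal days 4 and 7. Their arrays also carried marker signal of other cell types, given below. Every sample carries the CD1 strain label. The sources used here give neither the age nor the sex of the tumours, nor whether a GNP sample came from 1 animal or a pool. The sex-linked genes given below bear on the last point. The 4 tumours of germline *Ptch1*+/- mice in the series, which carry 1 disrupted *Ptch1* allele in the germline, serve as a second reference. Nothing in the labels says whether the tumours came from separate animals, so p-values measure the spread between samples. In the linear model that spread was pooled over 6 groups and all 23 arrays, not taken from the MERP and GNP arrays alone. Tumours that the study induced with CRISPR/Cas9, by electroporation in wild-type or by transfection in *Trp53*-null mice, were taken as 1 of these groups.

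GNPs form the external granular layer of the young cerebellum, where Sonic hedgehog from Purkinje cells keeps them dividing before they leave the cell cycle and become granule neurons. The receptor Ptch1 holds the membrane protein Smo inactive until the ligand binds it. Active Smo acts through the primary cilium on the GLI transcription factors, and *Ptch1*, *Gli1* and *Hhip* are themselves transcribed in response, so that the pathway carries its own negative feedback.

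Expression values are log2 RMA values from Affymetrix mouse genome arrays, so a difference of 1 is a 2-fold change. For each of 18194 genes the brightest probe set, averaged over the 23 arrays, was taken, and a gene was called at an adjusted p under 0.05 in limma. A group mean below 4.49, the lower quartile of all values, was taken as near background, and a fold change against such a group is only a lower limit. Arrays of MERP tumours correlated with each other at r = 0.976 to 0.989 over all probe sets, GNP arrays at 0.988 to 0.997, and MERP with GNP arrays at 0.945 to 0.971. Array controls differed between the groups. The mean of the bacterial spike-in probe sets was 9.63, 9.75, 10.44, 10.87 and 9.22 in the 5 MERP tumours and 8.90 to 8.97 in the GNPs (exact two-sided permutation test, p = 0.0357, the smallest that 5 against 3 arrays allow). The gap between 3′ and 5′ probe sets of the mouse control genes, a sign of RNA integrity, was 0.76 to 1.6 in MERP tumours and 0.64 to 0.79 in GNPs (exact permutation p = 0.0714). Tumour 3 had the widest gap, and tumours 3 and 4 had the highest spike-in values. Their part in the results was not tested, other than by leaving arrays out.

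Of the 18194 genes, 3493 (19.2%) were called. MERP tumours had higher expression for 1295 genes (7.12%) and lower expression for 2198 (12.1%). The counts of list members called below are to be read against these shares. The asymmetry was wider among large differences, with 298 called genes (1.64%) at least 2-fold higher and 1258 (6.91%) at least 2-fold lower. At 8-fold or more, 17 genes were higher and 160 lower. Of the 1258 genes at least 2-fold lower, 179 were near background in the tumours, and of the 298 at least 2-fold higher, 26 were near background in GNPs. The higher share of called genes depended on the scale. Centring each array on the median of the 18194 genes, a median that was 7.22 to 7.39 in MERP tumours and 7.56 to 7.60 in GNPs, moved the median difference of all genes from 0.05 to 0.31, and then 6201 genes were called higher and 1653 lower. Differences below are on the deposited scale. Under that centring the members called higher went from 2 to 5 for Hedgehog reception, 1 to 5 for transduction, 3 to 9 for G1 control, 4 to 9 for p53 targets, 3 to 7 for microglia, 2 to 6 for Polycomb genes and 3 to 7 for other chromatin genes, and GNP identity went from 1 higher and 6 lower to 3 and 3. None of the called named genes changed direction under another scaling. The plot of the difference against expression level for every gene shows this imbalance.

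**Figure D1:**
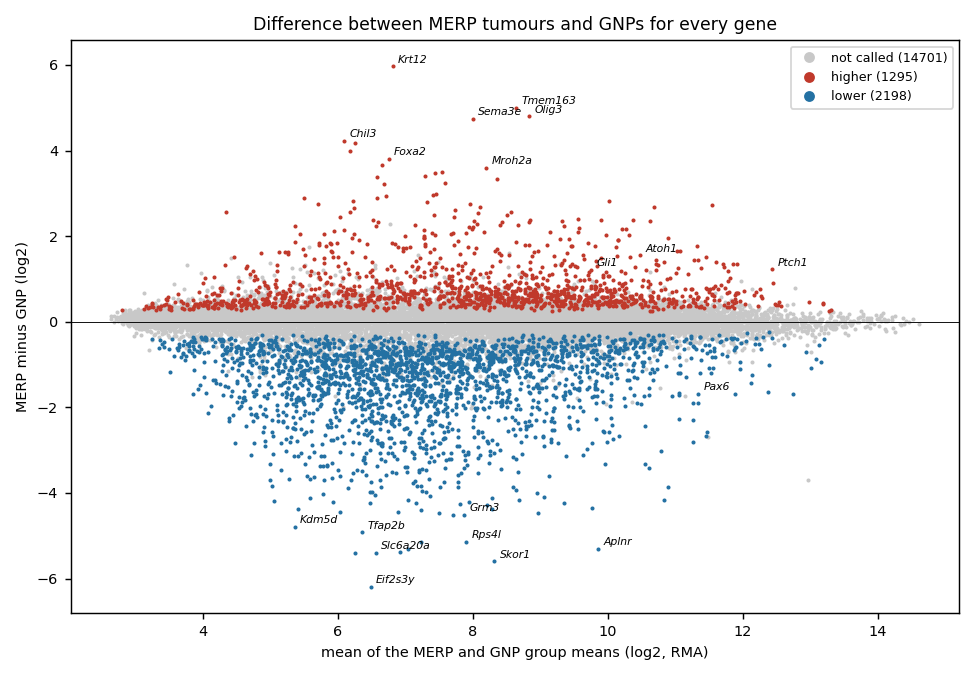
Difference in expression, MERP minus GNP (log2), against the mean of both group means (log2 RMA) for each of 18194 genes. Red points are the 1295 genes called higher, blue points the 2198 called lower, and grey points the genes that were not called. Lower genes reach further from 0 and are more numerous, with *Eif2s3y* at -6.19 and *Skor1* at -5.59, whereas *Krt12* stands highest at 5.96.

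*Ptch1* itself is the gene lost in the tumours. Its expression was 13.05, 13.19, 13.24, 12.75 and 12.98 in the 5 MERP tumours and 12.04, 11.76 and 11.67 in the 3 GNP samples, a difference of 1.22 (SE 0.20, adjusted p = 0.000108). All MERP tumours lay above all GNP samples. All 3 *Ptch1* probe sets were higher in MERP tumours, by 1.22, 2.41 and 0.56, and the files do not say whether any of them reads the floxed part of the transcript, so they do not check the loss of the allele. In the germline *Ptch1*+/- tumours *Ptch1* was at 11.84, 11.50, 12.26 and 11.80, and MERP tumours exceeded them by 1.20 (SE 0.18, adjusted p = 5.93e-05).

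Among the 12 measured genes of Hedgehog reception, 2 passed the test as higher and 1 as lower, and 9 did not pass (median difference 0.21, against 0.05 for all genes). Besides *Ptch1*, *Evc*, which encodes a protein at the base of the primary cilium that relays the Smo signal, was higher at 7.61, 8.25, 8.49, 8.25 and 8.06 in MERP tumours against 7.85, 7.13 and 7.04 in GNPs, a difference of 0.79 (SE 0.23, adjusted p = 0.0161). Tumour 1 lay below GNP sample 1 for *Evc*, and the call was lost without GNP sample 2 (adjusted p = 0.0925), without GNP sample 3 (0.112) or without tumours 3 and 4 together (0.115). The co-receptor *Cdon* was lower, at 6.76, 6.01, 6.49, 6.18 and 7.26 against 7.91, 7.66 and 7.42, a difference of -1.12 (SE 0.32, adjusted p = 0.0169). The groups did not overlap, although a second *Cdon* probe set differed by 0.08 and the call was lost without GNP sample 1 (adjusted p = 0.0844), GNP sample 2 (0.0556) or tumours 3 and 4 (0.0959). *Hhip*, which encodes a membrane protein that binds and sequesters the ligand, was at 8.85, 8.24, 8.03, 7.74 and 8.61 against 7.70, 7.31 and 7.05. All MERP tumours were above all GNP samples, and its 4 probe sets differed by 0.85 to 1.08, but the difference of 0.94 (SE 0.51) missed the threshold at an adjusted p of 0.214 in the fit of all groups and passed it when MERP and GNP arrays were fitted alone (adjusted p = 0.0243). *Smo* was at 10.54 to 11.19 in MERP tumours and 10.72 to 10.76 in GNPs, a difference of 0.08 (SE 0.26, adjusted p = 0.859). The co-receptors *Boc* and *Gas1* differed by 0.48 (adjusted p = 0.0963) and 0.27 (adjusted p = 0.273). *Boc* passed the test in 6 of the alternative analyses, among them the mean of its probe sets (0.38, adjusted p = 0.0291). Another was the fit with electroporated and transfected CRISPR tumours as separate groups (0.48, adjusted p = 0.0476). The ligand gene *Shh* was low in both groups, at 4.84 to 5.13 and 5.12 to 5.46, and *Lrp2* was near background in both. *Evc2*, *Gpr161* and *Disp1* differed by 0.38, -0.17 and -0.12, with adjusted p-values of 0.498, 0.646 and 0.66.

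Of the 14 genes of Hedgehog transduction, 1 was higher, 2 were lower and 11 did not pass the test (median difference -0.02), shares near the 7.12% of all genes called higher and 12.1% called lower. The 3 GLI factors differed in direction. *Gli1*, the activator that is itself a pathway target, was at 9.86, 10.49, 10.94, 10.26 and 10.27 in MERP tumours and 9.52, 9.04 and 8.91 in GNPs. Every tumour was above every GNP sample, and the difference was 1.21 (SE 0.23, adjusted p = 0.000566). *Gli2*, the main activator at the start of signalling, was at 11.25, 11.53, 11.41, 10.94 and 10.87 against 11.61, 11.62 and 11.61. Here every tumour was below every GNP sample, but the difference of -0.41 did not pass the test (adjusted p = 0.173). *Gli3*, whose processed form represses target genes, was at 7.76, 7.03, 7.0, 6.18 and 8.78 against 8.48, 8.74 and 8.68, a difference of -1.29 (SE 0.37, adjusted p = 0.0159). Tumour 5 reached the GNP level, tumour 4 was the lowest, and without tumours 3 and 4 the difference was -0.78 (adjusted p = 0.138). The call was also lost without GNP sample 2 (adjusted p = 0.0649) or 3 (0.0579). The kinase gene *Gsk3b* was lower by a small margin, -0.39 (SE 0.13, adjusted p = 0.0399), and its 6 probe sets disagreed in sign, from -0.62 to 0.32. The call was lost without any 1 GNP sample (adjusted p = 0.062 to 0.163) and after centring on the 18194 genes (-0.13, adjusted p = 0.399). The suppressor *Sufu* was at 9.02 to 10.08 against 9.28 to 9.48, a difference of 0.27 (SE 0.19, adjusted p = 0.353). For the remaining members, among them *Kif7*, *Spop*, *Tulp3*, *Itch*, *Ulk3* and the protein kinase A genes *Prkaca* and *Prkacb*, differences lay between -0.39 for *Spop* and 0.41 for *Tulp3*, and none passed the test. The result for *Spop* depended on the probe set, since others differed by -1.16 and -0.11. *Spop* passed as lower on the mean of its probe sets (-0.55, adjusted p = 0.00916) and with array weights (-0.43, adjusted p = 0.0194). *Tulp3* passed as higher with array weights (0.45, adjusted p = 0.0317).

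Of the 16 measured Hedgehog target genes, 5 were higher, 2 were lower and 9 did not pass the test, a share of higher genes to be read against 7.12% of all genes. Their median difference was 0.45. The counts do not separate genes that the pathway raises from any that it represses. Centring on the 18194 genes raised the number called higher to 11. *Foxa2*, the winged-helix factor that responds to Hedgehog in the floor plate, differed most. It was at 7.51, 8.69, 8.56, 8.51 and 9.999 in MERP tumours and 4.70, 5.11 and 4.75 in GNPs, where it lay just above background. The groups were separated by more than 2 units, and the difference was 3.8 (SE 0.38, adjusted p = 1.62e-07). *Cdk6*, a kinase that pairs with D cyclins, was at 12.31, 12.01, 12.23, 11.98 and 12.51 against 10.30, 10.46 and 10.54, again without overlap, a difference of 1.77 (SE 0.45, adjusted p = 0.00674). *Bmi1*, a Polycomb gene, was at 11.68 to 12.12 against 11.06 to 11.42, a difference of 0.60 (SE 0.14, adjusted p = 0.00367). *Ptch1* and *Gli1*, given above, complete the higher genes. *Nkx2-2*, a ventral neural tube factor, was lower at 4.58 to 5.66 against 6.12 to 6.85, a difference of -1.39 (SE 0.25, adjusted p = 0.000302), and *Cdon*, described above, was the other lower gene.

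*Sfrp1*, a secreted Wnt antagonist used as a marker of Hedgehog-type MB, was at 12.72, 12.47, 12.48, 12.43 and 12.19 in MERP tumours and 11.55, 11.44 and 11.50 in GNPs. The groups were well apart, yet the difference of 0.96 (SE 0.38) had an adjusted p of 0.0799. It was 0.000427 when MERP and GNP arrays were fitted alone, and 0.0197 on the mean of its 5 probe sets. With electroporated and transfected CRISPR tumours as separate groups in the fit, the adjusted p was 0.0292. *Mycn*, the Hedgehog-driven MYC family member of GNPs, was at 12.20, 12.32, 12.39, 11.99 and 11.91 against 11.79, 11.67 and 11.78. Its groups did not overlap, but the difference of 0.42 did not pass the test (adjusted p = 0.169). It passed in 4 alternative analyses, the mean of the *Mycn* probe sets (0.40, adjusted p = 0.00921), centring on the 18194 genes (0.68, adjusted p = 0.0108), array weights (0.49, adjusted p = 0.0205) and the replicate block (0.56, adjusted p = 0.0495). The D cyclin genes were high in both groups. *Ccnd1* was at 11.76 to 12.55 in MERP tumours and 11.49 to 12.27 in GNPs, and *Ccnd2* at 13.04 to 13.40 and 13.31 to 13.38. Neither passed the test, with differences of 0.15 and -0.12. *Igf2*, which encodes a growth factor, spread most among the tumours, at 10.66, 9.14, 10.48, 8.17 and 12.92 against 12.28, 12.03 and 11.74. Tumour 5 was above all GNP samples, the other 4 tumours were below them, and the difference of -1.74 did not pass the test. Without tumour 5 the difference was -2.41 (adjusted p = 0.00608). *Igf2* also passed as lower with array weights (-1.91, adjusted p = 0.00374) and with the replicate block (-1.92, adjusted p = 0.0163). *Foxm1* differed by 0.29 (adjusted p = 0.0986). Of the 6 Hedgehog genes that the study itself picked as raised in its tumours (*Gli1*, *Gli2*, *Hhip*, *Boc*, *Sfrp1* and *Mycn*), 1 was higher and 5 did not pass the test, and after centring on the 18194 genes 5 were higher. The study described similar levels of these genes in its own tumours, the other *Ptch1* models and GNPs. It therefore did not place them above GNPs. That list was chosen on arrays of the same series and is not independent evidence of its direction.

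**Figure D2:**
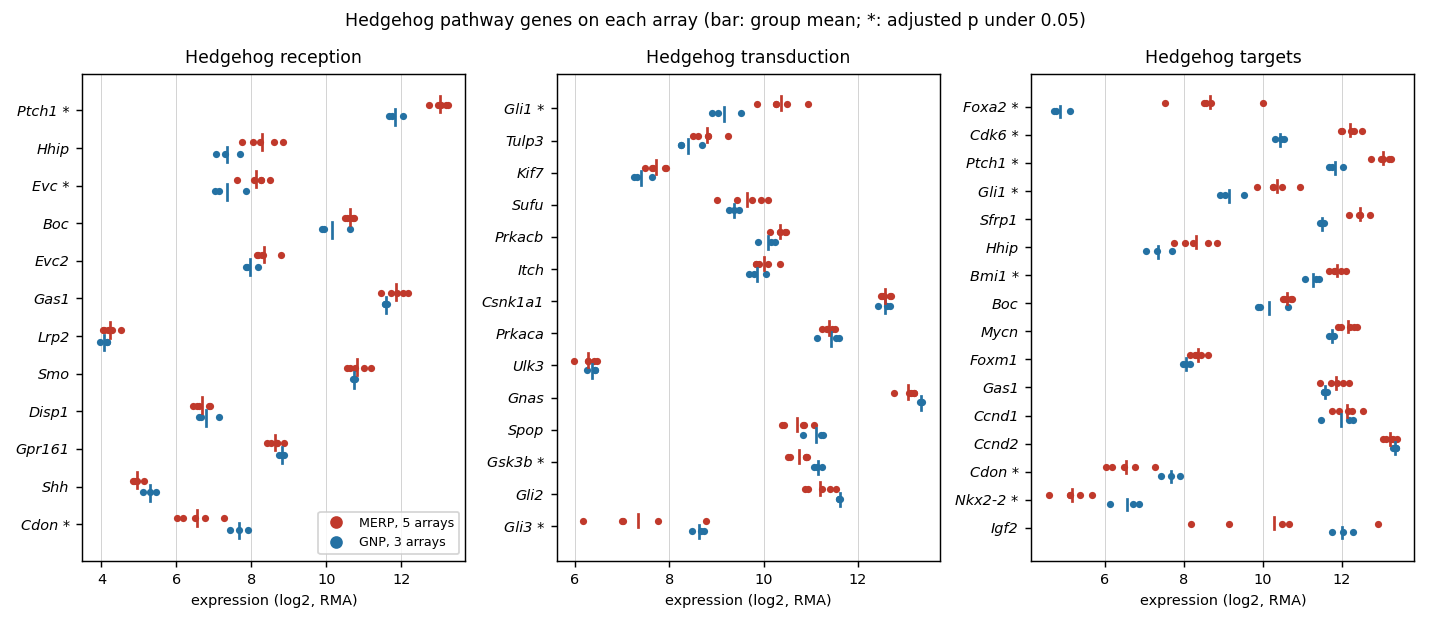
Expression (log2 RMA) of every measured gene of Hedgehog reception, transduction and response on each of 5 MERP (red) and 3 GNP (blue) arrays. Points are arrays, vertical bars group means, and asterisks mark genes called at an adjusted p under 0.05. *Ptch1*, *Gli1*, *Foxa2* and *Cdk6* show separated groups, *Gli3* and *Igf2* wide spread among the tumours, and *Smo* and *Ccnd2* overlap.

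GLI factors bind a 9-base motif, GACCACCCA, whose core is CCACCC. Because several targets moved upwards together, the 250 bases before the transcription start were searched on both strands in RefSeq promoters (build GRCm38.p6). The table searched holds 10 of the 16 measured targets, with 15 start sites, and has no entry for *Gli1*. The 9-base motif was in 0 of these 10 genes and in 0.225% of all 32851 windows searched. The shorter core was in 6 of the 15 windows of these genes, which belong to 4 genes, and in 28.1% of all windows. The promoters of the 4 higher targets that have an entry are shown, each written from 5′ to 3′ on the strand of the gene, with capitals marking the core on either strand. *Foxa2* has 3 start sites, of which the 1 with the most core matches is shown.
Ptch1, chr13:63565736-63565985, minus strand: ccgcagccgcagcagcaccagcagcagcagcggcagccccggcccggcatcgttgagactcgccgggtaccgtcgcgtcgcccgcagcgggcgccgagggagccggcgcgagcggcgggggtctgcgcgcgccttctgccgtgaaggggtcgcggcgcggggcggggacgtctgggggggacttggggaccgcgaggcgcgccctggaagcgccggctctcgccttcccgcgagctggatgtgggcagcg
Cdk6, chr5:3343643-3343892, plus strand: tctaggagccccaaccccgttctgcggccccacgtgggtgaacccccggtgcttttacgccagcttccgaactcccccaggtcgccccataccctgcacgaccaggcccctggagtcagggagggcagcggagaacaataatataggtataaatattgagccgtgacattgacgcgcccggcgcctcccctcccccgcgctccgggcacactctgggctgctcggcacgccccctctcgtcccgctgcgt
Bmi1, chr2:18676768-18677017, plus strand: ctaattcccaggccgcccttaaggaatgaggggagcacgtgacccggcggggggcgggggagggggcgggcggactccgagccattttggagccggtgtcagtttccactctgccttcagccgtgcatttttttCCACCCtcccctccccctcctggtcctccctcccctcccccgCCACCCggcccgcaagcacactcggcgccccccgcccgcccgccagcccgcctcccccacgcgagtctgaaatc
Foxa2, chr2:148045465-148045714, minus strand: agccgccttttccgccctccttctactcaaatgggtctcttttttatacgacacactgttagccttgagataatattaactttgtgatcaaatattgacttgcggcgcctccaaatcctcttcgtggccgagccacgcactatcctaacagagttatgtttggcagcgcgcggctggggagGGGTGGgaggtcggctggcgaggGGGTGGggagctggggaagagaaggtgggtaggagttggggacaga
Of these windows, *Bmi1* and *Foxa2* each hold 2 core matches, in the forward form for *Bmi1* and the reverse form for *Foxa2*, and *Ptch1* and *Cdk6* hold 0. A match describes the letters alone, and enhancers outside the windows were not searched.

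The comparison with germline *Ptch1*+/- tumours separated the Hedgehog genes further. *Gli1* was at 9.86 to 10.94 in MERP and 9.85 to 10.71 in *Ptch1*+/- tumours, a difference of 0.02 (SE 0.21, adjusted p = 0.958) that did not pass the test. *Cdk6*, *Bmi1* and *Mycn* also did not pass the test between them. *Foxa2* was higher in MERP by 2.35 (SE 0.35, adjusted p = 4.33e-05), *Gli3* was higher by 1.43 (SE 0.34, adjusted p = 0.00249), and *Smo* was lower, with a difference of -0.83 (SE 0.23, adjusted p = 0.00918). *Sfrp1*, at 12.77 to 13.998 in *Ptch1*+/- tumours, was lower in MERP, with a difference of -0.94 (SE 0.34, adjusted p = 0.0415). Over the 209 genes named by rule, 63 were called between MERP and *Ptch1*+/- tumours, where 32% of all genes were called. Of the 63, 40 were higher and 23 lower in MERP, beside 25.9% and 6.08% of all genes. The 209 genes were in large part chosen for their difference between the same MERP arrays and GNPs, so these counts are a description.

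Genes of GNP identity differed in direction. *Atoh1*, the factor that specifies granule precursors and whose promoter drives Cre in this model, was higher in the tumours, at 11.47, 11.41, 11.68, 11.23 and 10.52 against 9.59, 9.77 and 9.77. No tumour reached down to the GNP samples, and the difference was 1.55 (SE 0.28, adjusted p = 0.000269). *Pax6*, expressed by precursors and granule neurons alike, went the other way, at 10.76, 10.49, 10.54, 10.10 and 10.59 against 12.28, 12.07 and 12.18, a difference of -1.68 (SE 0.16, adjusted p = 6.89e-08). *Zic1* was at 13.56 to 13.66 in MERP tumours and 13.55 to 13.64 in GNPs, with a difference of 0.02 (adjusted p = 0.972), and *Barhl1* differed by 0.44 (adjusted p = 0.144). The *Barhl1* result depended on the probe set. Its other probe set differed by 1.28, and the mean of both passed as higher (0.86, adjusted p = 4.87e-05). *Barhl1* also passed after centring on the 18194 genes (0.70, adjusted p = 0.0117) and with array weights (0.46, adjusted p = 0.0335). Of the 16 measured genes of the GNP identity list, 1 was higher, 6 were lower and 9 did not pass the test, with a median of -0.32. The lower genes include *Mab21l1*, at 10.30 to 10.43 in MERP and 11.14 to 11.18 in GNPs, and *Meis2*, which was dim in both groups. Against *Ptch1*+/- tumours, MERP tumours had more *Atoh1* (difference 0.94 (SE 0.25, adjusted p = 0.00699)) and less *Pax6* (difference -1.36 (SE 0.15, adjusted p = 2.12e-06)). Side by side, *Ptch1*+/- tumours differed from GNPs by 0.61 for *Atoh1* and -0.32 for *Pax6*.

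Genes of granule neurons that have left the cell cycle were lower or not called. Of 18 genes of early granule neuron differentiation, 0 were higher and 7 were lower (median -0.54). *Unc5c*, a netrin receptor of migrating granule neurons, was at 7.75, 7.68, 7.35, 6.52 and 6.86 against 11.91, 11.23 and 11.29. The gap between the groups was more than 3 units, and the difference was -4.25 (SE 0.38, adjusted p = 2.27e-08). *Neurod2*, a neurogenic factor, differed by -2.05 (SE 0.27, adjusted p = 7.92e-06), and the adhesion gene *Cntn1* and the semaphorin gene *Sema6a* differed by -2.40 and -1.51. Of 15 genes of mature granule neurons, 0 were higher and 4 were lower. *Cadps2*, a regulator of vesicle release, was at 9.93, 9.38, 9.53, 8.91 and 6.72 against 12.14, 12.25 and 12.24. It was below the GNPs in every tumour and lowest in tumour 5. The potassium channel gene *Kcnd2* differed by -4.29, with *Syt1* at -2.29 and *Chn2* at -1.69. The *Chn2* call was lost without tumour 1, tumour 4 or any 1 GNP sample (adjusted p = 0.0542 to 0.131). The median of the mature list was -0.21, and *Calb2*, which encodes calretinin, was above the GNPs in every tumour without passing the test (1.05, adjusted p = 0.192).

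Few genes of DNA replication and mitosis passed the test. Of 20 DNA replication genes, 1 was higher and 0 were lower (median 0.20), and of 19 mitotic genes, 1 was higher and 0 were lower (median 0.03). The higher replication gene, named after its value was seen, was the helicase gene *Mcm7* (0.24 (SE 0.08, adjusted p = 0.0457)). The higher mitotic gene was the kinase gene *Plk1*, at 9.82 to 10.06 against 9.37 to 9.71, a difference of 0.43 (SE 0.13, adjusted p = 0.0186), which lost its call without GNP sample 2 (adjusted p = 0.0917), GNP sample 3 (0.106) or tumours 3 and 4 (0.106). *Mcm6* and *Cdc45*, parts of the replicative helicase, were close to the threshold at 0.38 (adjusted p = 0.113) and 0.37 (adjusted p = 0.0528). These 2 lists rest on the scale: after centring on the 18194 genes, 13 replication genes and 5 mitotic genes were called higher. Against *Ptch1*+/- tumours the picture differed, with 14 of the 19 mitotic genes and 7 of the 20 replication genes higher in MERP, beside 25.9% of all genes, and 0 and 2 lower, beside 6.08%. *Plk1* was higher than there by 0.81 (SE 0.12, adjusted p = 2.91e-05) and *Kif20a*, a motor of cytokinesis, by 1.01 (SE 0.19, adjusted p = 0.000365). Of 19 genes of G1 control, 3 were higher and 1 was lower than in GNPs, beside 7.12% and 12.1% of all genes. *Cdk6* is given above, *Ccnd3* and the pocket protein gene *Rbl2* were higher by 0.72 (SE 0.23, adjusted p = 0.0288) and 0.68 (SE 0.21, adjusted p = 0.0249), and *E2f7*, a repressor E2F, was lower, with a difference of -0.59 (SE 0.19, adjusted p = 0.0287). The calls of *Ccnd3*, *Rbl2* and *E2f7* were lost without any 1 GNP sample (adjusted p = 0.061 to 0.131).

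Inhibitors of cyclin-dependent kinases had the highest median of the lists. Of 7 measured, 4 passed the test as higher and 1 as lower, and 2 did not pass (median 0.77). *Cdkn2a*, which encodes p16Ink4a and p19Arf, was near background in GNPs, at 3.97, 4.34 and 4.19, and reached 5.33, 8.71, 8.10, 10.23 and 9.33 in the 5 tumours. Tumour 1 was nearest to the GNPs while tumour 4 was highest, and the difference of 4.17 (SE 0.71, adjusted p = 0.000156) is a lower limit. *Cdkn1a*, which encodes p21, was at 10.58, 10.22, 9.75, 10.34 and 11.01 against 8.86, 8.91 and 8.97, without overlap, a difference of 1.47 (SE 0.31, adjusted p = 0.00166). *Cdkn2b*, which encodes p15, was at 6.92, 7.86, 7.59, 8.53 and 7.90 against 6.24, 6.49 and 6.62, a difference of 1.31 (SE 0.25, adjusted p = 0.000666). *Cdkn2c*, which encodes p18, was higher by 0.77 (SE 0.18, adjusted p = 0.00357). *Cdkn1c*, which encodes p57, was lower, at 8.63, 7.40, 7.47, 7.19 and 8.69 against 8.87, 9.21 and 9.06, a difference of -1.17 (SE 0.30, adjusted p = 0.00819). Tumours 1 and 5 were nearest to the GNPs, and without tumours 3 and 4 the difference was -0.81 (adjusted p = 0.0915). *Cdkn1b*, which encodes p27, and *Cdkn2d* differed by 0.15 and -0.08 and did not pass the test. *Cdkn2a* was also raised in *Ptch1*+/- tumours, at 8.84, 7.77, 8.06 and 8.02, and the difference between the tumour types was 0.17 (SE 0.65, adjusted p = 0.874).

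Of 17 measured p53 targets, 4 were higher and 1 was lower, beside 7.12% and 12.1% of all genes. *Phlda3* rose to 6.91 to 7.64 against 6.40 to 6.45 (0.86 (SE 0.20, adjusted p = 0.00305)), and *Perp*, a desmosomal gene, was lower, with a difference of -2.84 (SE 0.31, adjusted p = 5.96e-07). Of 14 BCL2 family genes, 3 were higher and 0 lower. The BH3-only gene *Hrk* was at 9.90, 10.16, 10.40, 10.06 and 9.65 against 6.62, 6.84 and 6.63. All tumours were at least 2 units above every GNP sample, and the difference was 3.34 (SE 0.28, adjusted p = 1.44e-08). *Bbc3*, which encodes Puma and is also a p53 target, was higher by 0.78 (SE 0.15, adjusted p = 0.000552). *Bok* was higher by 0.53 (SE 0.15, adjusted p = 0.0151), a call lost without GNP sample 1 (adjusted p = 0.119), and *Bcl2* did not pass the test. In *Ptch1*+/- tumours *Hrk* was at 7.90 to 8.75, lower than in MERP tumours, which exceeded them by 1.65 (SE 0.26, adjusted p = 7.76e-05).

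Of 12 genes of the MYC network, 5 were higher and 0 lower (median 0.39). *Myc* was at 9.69, 9.74, 10.02, 9.16 and 9.97 in MERP tumours and 7.91, 8.27 and 8.07 in GNPs. The groups did not overlap, and the difference was 1.63 (SE 0.31, adjusted p = 0.00051). *Mycl* was at 11.18 to 11.54 against 10.15 to 10.54, a difference of 1.02 (SE 0.17, adjusted p = 9.85e-05). *Mga* and *Mxi1*, whose products compete with MYC for its partner MAX, were higher by 0.62 and 0.52, but other probe sets of *Mga* reached -0.29 and the *Mxi1* call was lost without GNP sample 1 (adjusted p = 0.0558). The fifth, named after its value was seen, was *Mlx*, at 0.39. Of 18 genes of ribosome biogenesis, 6 were higher and 0 lower (median 0.32). *Polr1b*, a subunit of RNA polymerase I, differed by 1.01 (SE 0.22, adjusted p = 0.00181), and the nucleolar genes *Nop2*, *Gnl3* and *Nop14* by 0.79, 0.58 and 0.46. The calls of *Gnl3* and *Nop14* were lost without GNP sample 2 or 3 (adjusted p = 0.0747 to 0.0871). Centring on the 18194 genes raised these counts to 8 and 13.

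Among the 12 genes furthest above GNPs, chosen from called genes whose groups did not overlap and whose higher group had a mean above the median gene, *Krt12*, a corneal keratin gene, was at 10.07, 10.39, 6.92, 10.94 and 10.64 in MERP tumours and 3.8, 3.86 and 3.82 in GNPs. Tumour 3 stood below the other 4 tumours, and the difference of 5.96 (SE 0.70, adjusted p = 1.47e-06) is a lower limit because the GNPs were near background. *Tmem163*, a zinc transporter gene, was at 10.77, 11.03, 10.94, 11.31 and 11.64 against 6.46, 6.24 and 5.71, a difference of 5.0 (SE 0.37, adjusted p = 1.95e-09). *Olig3*, a rhombic lip bHLH gene, was at 11.07, 11.50, 11.18, 11.19 and 11.21 against 6.74, 6.22 and 6.33, and its difference of 4.8 carried a larger SE of 1.0 (adjusted p = 0.00129). The 5 tumours lay close together for *Olig3* and well above the GNPs. The SE pools the spread of all groups in the fit, and *Olig3* ranged from 7.01 to 10.54 in *Ptch1*+/- tumours. *Sema3e*, a semaphorin gene, was at 10.69, 10.30, 10.34, 10.33 and 10.20 against 5.88, 5.34 and 5.65, a difference of 4.75 (SE 0.48, adjusted p = 1.92e-07). The others were the macrophage lectin gene *Chil3* (4.22), the plasma cell gene *Jchain* (3.99), *Pex5l* (3.66), *Mroh2a* (3.6), the synaptic cerebellin gene *Cbln4* (3.49) and the T-box gene *Tbx1* (3.48), with *Cdkn2a* and *Foxa2* described above. *Chil3* and *Jchain* were near background in GNPs. *Jchain* was close to the GNP level in tumour 1 and at 8.37 to 9.91 in the other 4. Between MERP and *Ptch1*+/- tumours, *Krt12* (3.13), *Tmem163* (2.58), *Jchain* (3.18), *Foxa2* (2.35), *Chil3* (2.14), *Tbx1* (1.58) and *Pex5l* (0.87) were also called higher in MERP, where 25.9% of all genes were. *Olig3*, *Sema3e*, *Cdkn2a*, *Mroh2a* and *Cbln4* did not pass that test. The 12 genes were chosen for high values on these same MERP arrays, so their differences from *Ptch1*+/- tumours are a description.

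The 12 genes furthest below GNPs included members of the lists of other cell types. *Gad1*, which makes the transmitter GABA, and the transcription factor genes *Skor1* and *Tfap2b* were on the list of the GABAergic lineage, and *Dynlrb2* was on the list of motile cilia. *Eif2s3y* and *Kdm5d* lie on the Y chromosome. *Kcne2*, a potassium channel subunit gene, and *Htr2c*, a serotonin receptor gene, were on no list. *Skor1* was at 7.29, 5.12, 5.41, 4.93 and 4.85 in MERP tumours and 11.11, 11.15 and 11.07 in GNPs, a difference of -5.59 (SE 0.58, adjusted p = 2.51e-07). *Slc6a20a*, an amino acid transporter gene, was at 3.75, 4.35, 3.74, 4.0 and 3.45 against 9.21, 9.42 and 9.15, and *Aplnr*, the apelin receptor gene, at 8.46, 8.15, 6.71, 5.92 and 6.78 against 12.77, 12.31 and 12.47. *Aplnr* remained well above background in all tumours, whereas *Slc6a20a*, *Gad1*, *Kcne2*, *Htr2c*, *Tfap2b* and both Y-linked genes were near background in MERP, so their differences are lower limits. *Rps4l* and the glutamate receptor gene *Grm3* were lower, with differences of -5.14 (SE 0.75, adjusted p = 2.41e-05) and -4.52 (SE 0.47, adjusted p = 2.18e-07). Of the 12, *Eif2s3y* and *Kdm5d* were called between MERP and *Ptch1*+/- tumours and the other 10 were not. The sex-linked signals of these groups are given below.

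**Figure D3:**
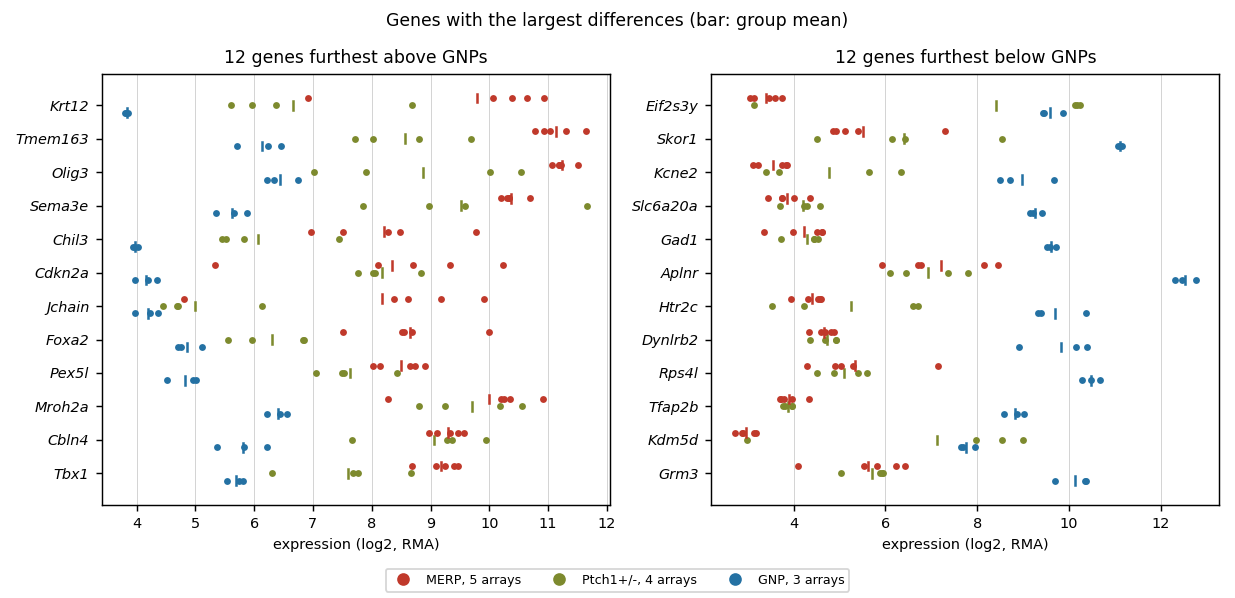
Expression (log2 RMA) of the 12 genes furthest above and the 12 furthest below GNPs on each of 5 MERP (red), 4 *Ptch1*+/- (green) and 3 GNP (blue) arrays, with bars at the group means. The mean of the *Ptch1*+/- tumours lies between the other means for *Krt12*, *Tmem163* and *Foxa2*, and beside MERP tumours for *Gad1*, *Dynlrb2* and *Tfap2b*.

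The Y-linked genes *Eif2s3y*, *Kdm5d* and *Uty* were at 3.05 to 3.74, 2.71 to 3.18 and 3.0 to 3.76 in the 5 MERP tumours and at 9.43 to 9.86, 7.65 to 7.94 and 6.52 to 6.77 in the GNPs. *Xist*, the X-inactivation transcript of female cells, was at 12.35 to 13.80 in MERP tumours and 11.74 to 13.20 in GNPs. Each GNP sample held both Y-linked and *Xist* signal, the signal of a pool of male and female animals. In all 5 MERP tumours the Y-linked genes were near background and *Xist* was high. In *Ptch1*+/- tumour 3, *Eif2s3y* was at 3.1 and *Xist* at 12.7. In the other *Ptch1*+/- tumours they were at 10.1 to 10.2 and at 5.9 to 6.2. Sex and group cannot be told apart for sex-linked genes, against GNPs or against most of the *Ptch1*+/- tumours.

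In bulk samples, fewer cells of a type and less RNA per cell cannot be told apart, and this holds for every list that follows. All 15 vessel genes were lower (median -2.52), with the mean of the list on an array at 6.27 to 7.28 in MERP tumours and 9.08 to 9.63 in GNPs. *Tek* and *Kdr*, receptor genes of endothelial cells, differed by -4.17 (SE 0.31, adjusted p = 1.47e-09) and -3.52 (SE 0.33, adjusted p = 5.16e-08), the tight junction gene *Cldn5* by -3.41 and the pericyte gene *Pdgfrb* by -3.85. All 10 genes of meninges and fibroblasts were lower (median -3.81), with a list mean of 6.72 to 7.36 in MERP tumours and 10.14 to 10.49 in GNPs, among them *Col1a2* (-4.36), *Ptgds* (-4.16), *Dcn* (-4.09) and *Col3a1* (-3.86). Of 9 choroid plexus genes, 6 were lower and 3 did not pass the test (median -3.71), and of 10 motile cilium genes, 8 were lower (median -2.88). *Calml4*, *Sostdc1*, *Kcnj13* and *Folr1* differed by -4.51, -4.46, -4.41 and -3.99, and the cilium genes *Tmem212*, *Enkur* and *Ccdc153* by -4.08, -4.05 and -3.37. The list mean was 6.18 to 7.07 in MERP tumours and 9.47 to 10.25 in GNPs for choroid plexus, and 4.83 to 5.01 and 7.13 to 7.77 for motile cilia. On the adult cerebellum arrays of the series the list means were 7.6 to 7.8 for vessels and 8.4 to 8.5 for meninges. They were 6.0 to 6.3 for choroid plexus and 5.6 to 5.7 for motile cilia. The GNP samples thus carried more signal of these lists than whole adult cerebellum. Its part in the differences was not tested. GNP sample 1 was highest of the 3 GNP samples for the vessel, meningeal, choroid plexus and motile cilium lists. No member of the choroid plexus or meningeal lists had a MERP mean near background.

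The GABAergic lineage had the lowest median of the cell type lists. Of 12 measured GABAergic genes, 9 were lower, 1 was higher and 2 did not pass the test (median -3.93). *Ptf1a*, the factor that specifies the cerebellar GABAergic lineage, was at 4.04, 3.65, 3.67, 3.59 and 4.05 in MERP tumours and 8.11, 8.38 and 8.28 in GNPs. All tumours were near background, and 6 of the 12 genes had a MERP mean near background. The list mean was 5.29 to 5.62 in MERP and 8.40 to 8.51 in GNPs. The higher gene, named after its value was seen, was the calcium-binding protein gene *Pvalb*, at 8.88, 8.15, 8.28, 7.91 and 12.06 against 6.70, 6.98 and 6.87 (2.21 (SE 0.70, adjusted p = 0.029)), with tumour 5 far above the others. Of 8 Purkinje cell genes, 3 were lower and 1 was higher. *Calb1* and *Car8* differed by -4.23 and -3.06, whereas *Foxp2* was higher by 1.79 (SE 0.27, adjusted p = 3.78e-05). Of 7 genes of unipolar brush cells and the rhombic lip, 1 was lower and 1 higher. *Eomes*, the marker of unipolar brush cells, was at 6.59 to 7.15 against 9.62 to 9.98, a difference of -2.86 (SE 0.42, adjusted p = 2.47e-05). *Lhx2* was at 7.31, 8.18, 8.20, 7.97 and 8.46 against 4.96, 5.10 and 5.35, a difference of 2.88 (SE 0.26, adjusted p = 2.39e-08), with no overlap.

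Glial markers were mixed. Of 13 astrocyte genes, 6 were lower and 2 higher (median -1.55), with *Tnc*, *Aldh1l1*, *Gja1* and *Gdf10* at -3.21, -2.83, -2.81 and -2.75. The higher genes, named after their values were seen, were *S100b* (1.93 (SE 0.51, adjusted p = 0.00915)) and the glutamate transporter gene *Slc1a2* (0.69 (SE 0.21, adjusted p = 0.025)). The list mean was 8.94 to 9.79 in MERP tumours and 10.20 to 10.60 in GNPs. Of 10 neural stem cell genes, 4 were lower and 0 higher. *Sox2* was at 8.79, 9.46, 9.16, 9.05 and 6.79 against 10.37, 10.51 and 10.41. Tumour 5 was by far the lowest, and the difference of -1.77 did not pass the test (adjusted p = 0.0869). *Sox2* passed with MERP and GNP arrays fitted alone (adjusted p = 0.035), with array weights (0.00438) and with the replicate block (0.0049). Of 10 myelin genes, 4 were lower and 0 higher, with *Cnp* at -1.72 and *Mbp* at -1.93, the latter not called (adjusted p = 0.216). *Mbp* passed with MERP and GNP arrays fitted alone (adjusted p = 0.00135), with array weights (0.02) and with the replicate block (0.0132). Oligodendrocyte precursor genes differed from the myelin genes, with 3 of 9 higher and 1 lower. *C1ql1* was at 8.54, 8.87, 7.71, 9.31 and 8.97 against 6.09, 6.37 and 6.06, a difference of 2.5 (SE 0.39, adjusted p = 5.7e-05), and *Bcas1* was higher by 1.43 (SE 0.36, adjusted p = 0.00596). *Olig2* was higher by 1.06 (SE 0.34, adjusted p = 0.0315), a call that was lost without any 1 of 5 arrays, and *Gpr17* was lower (-1.55), while the defining precursor gene *Pdgfra*, also named after its value was seen, did not pass the test (0.01, adjusted p = 0.986). Of 15 microglia and macrophage genes, 3 were higher and 1 was lower. *Ctss*, *C1qb* and *Aif1* were higher by 1.52, 1.53 and 1.41, although the *C1qb* call was lost without any 1 of 5 arrays (adjusted p = 0.052 to 0.0927). The list mean overlapped, at 7.32 to 8.13 in MERP tumours and 7.42 to 7.69 in GNPs, and *P2ry12*, a gene of resident microglia, was lower, at 4.33, 5.38, 4.62, 5.51 and 5.38 against 7.26, 7.22 and 7.67, a difference of -2.34 (SE 0.50, adjusted p = 0.00167). Of 5 red cell genes, 3 were lower, of 8 muscle genes 1 was lower (*Tnnt3*, -0.49), and of 8 lymphocyte genes 0 were called.

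**Figure D4:**
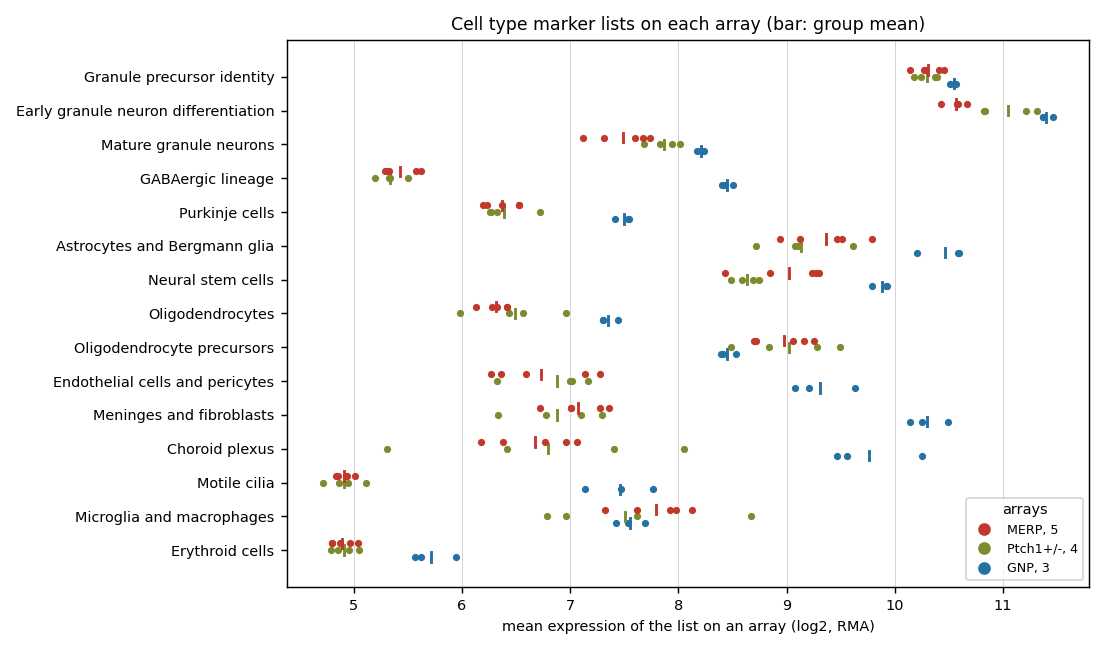
Mean expression (log2 RMA) of each cell type marker list on every array of MERP tumours (red, 5), *Ptch1*+/- tumours (green, 4) and GNPs (blue, 3), with bars at the group means. GNP arrays lie to the right of all MERP arrays for vessels, meninges, choroid plexus, motile cilia and the GABAergic lineage, and to the left for oligodendrocyte precursors.

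Signalling and matrix genes carried many of the lower calls. Of 18 matrix genes, 15 were lower and 0 higher (median -1.75), among them the vessel laminin gene *Lama4* (-2.89), *Lamb1* (-2.82), *Nid1* (-2.81) and *Col6a3* (-3.01). These shared their direction with the vessel and meningeal markers (list medians -2.52 and -3.81), as did the BMP genes. The part of these markers was not tested. Of 19 BMP genes, 12 were lower and 0 higher (median -1.21). The ligand gene *Bmp4* was at 4.86, 5.05, 5.19, 5.40 and 5.40 against 7.75, 7.38 and 7.48, a difference of -2.35 (SE 0.14, adjusted p = 7.43e-11), and *Bmp6* was lower, with a difference of -3.49 (SE 0.22, adjusted p = 1.67e-10). *Id4*, an inhibitor of bHLH factors that responds to BMP, was at 7.91, 7.77, 8.17, 7.30 and 3.58 against 11.14, 11.03 and 10.67. Tumour 5 was far below the others, and the difference was -4.0 (SE 0.79, adjusted p = 0.000817). *Id3* and *Id1* were lower, with differences of -2.10 and -1.57. Of 17 Notch genes, 5 were lower and 1 higher, with *Notch3* at -1.76, *Hey2* at -1.70, *Notch1* at -1.54 and *Dll1* at -1.37. The ligand gene *Jag1* was the higher one, at 0.98. *Notch3* is also a pericyte gene. Of 14 Wnt genes, 6 were lower and 1 higher. The Wnt target *Sp5* was at 6.53, 6.84, 5.70, 7.05 and 5.49 against 9.11, 9.59 and 9.63, a difference of -3.12 (SE 0.34, adjusted p = 4.76e-07), and *Lef1*, *Dkk3* and *Frzb* differed by -2.12, -2.13 and -1.16. The higher gene was the receptor gene *Lgr5* (0.99 (SE 0.30, adjusted p = 0.024)). *Jag1* and *Lgr5* were named after their values were seen.

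Of 13 genes of the insulin-like growth factor axis, 7 were lower and 1 higher (median -1.66). The lower genes shared their direction with the vessel, meningeal and choroid plexus markers, whose list medians were -2.52, -3.81 and -3.71. The part of these markers was not tested. The binding protein gene *Igfbp5* was at 8.48, 8.09, 7.62, 7.32 and 9.96 against 11.92, 11.50 and 11.42, a difference of -3.32 (SE 0.44, adjusted p = 6.62e-06). *Igfbp4* and *Igfbp2* were lower, with differences of -2.91 and -2.57, as was *Igf2bp3*, an RNA-binding protein gene of fetal tissue, at -2.17. The receptor genes *Igf1r* and *Igf2r* were lower, with differences of -1.12 and -1.66, as was the ligand gene *Igf1* at -1.70, and the adaptor gene *Irs1* was the higher one (0.91 (SE 0.21, adjusted p = 0.00353)), these 4 being named after their values were seen. Both *Igfbp5* (-1.40 (SE 0.40, adjusted p = 0.0106)) and *Igfbp4* (-1.46 (SE 0.28, adjusted p = 0.000412)) were also lower in MERP than in *Ptch1*+/- tumours. Of 22 axon guidance genes, 12 were lower and 1 higher (median -0.86), with *Slit2* (-3.73), *Efnb2* (-2.54) and *Sema3a* (-1.95) beside *Unc5c* given above. The higher gene, named after its value was seen, was the receptor gene *Robo2*, at 5.56, 6.17, 7.84, 5.0 and 5.09 against 5.03, 3.99 and 3.90 (1.63 (SE 0.53, adjusted p = 0.0341)), with tumour 3 highest and overlap between the groups. The guidance gene *Sema3e*, given among the highest genes, was not on that list.

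Metabolic, early response and immune genes gave a few large differences. Of 17 genes of glycolysis and hypoxia, 2 were higher and 3 lower, beside 7.12% and 12.1% of all genes. *Hk2*, the hexokinase gene of proliferating precursors, was at 11.77, 12.23, 11.77, 12.08 and 11.42 against 9.96, 10.26 and 10.39, without overlap, a difference of 1.65 (SE 0.18, adjusted p = 4.21e-07). *Hk1* was at 8.60, 7.72, 7.54, 6.98 and 7.62 against 8.82, 8.75 and 8.76, a difference of -1.08 (SE 0.32, adjusted p = 0.0181) that was lost without tumour 4 or any 1 GNP sample. The glucose transporter gene *Slc2a1*, also a gene of brain vessels, was lower, with a difference of -1.54 (SE 0.35, adjusted p = 0.00258), and the other glucose transporter gene measured, *Slc2a3*, was higher by 0.83 (SE 0.23, adjusted p = 0.0132), named after its value was seen. Of 16 immediate early genes, 2 were higher and 1 lower, beside 7.12% and 12.1% of all genes. *Fosl2* was at 9.13, 10.27, 9.91, 10.49 and 9.43 against 7.46, 7.38 and 6.99, a difference of 2.57 (SE 0.28, adjusted p = 4.01e-07), and *Jun* was higher by 1.28 (SE 0.23, adjusted p = 0.000275), with *Nr4a1* lower (-1.07). *Fosb* spread from 4.99 to 8.99 among the tumours and was not called. Of 16 genes of interferon response and antigen presentation, 4 were higher and 0 lower. The MHC class II gene *H2-Aa* was at 7.62, 9.84, 10.18, 10.30 and 7.43 against 6.81, 6.79 and 7.12. Tumours 2, 3 and 4 were higher than tumours 1 and 5, and this held for *H2-Ab1* and *H2-Eb1* too. Their differences were 2.17, 2.05 and 1.73, and without tumours 3 and 4 those of *H2-Aa* and *H2-Eb1* were 1.39 (adjusted p = 0.0837) and 1.14 (adjusted p = 0.109).

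Of 16 genes of Polycomb complexes and DNA methylation, 2 were higher and 0 lower, beside 7.12% and 12.1% of all genes. *Ezh2*, the PRC2 methyltransferase, was at 11.81 to 12.51 against 11.63 to 11.76, a difference of 0.49 (SE 0.14, adjusted p = 0.0199), and *Tet2* was higher by 0.76 (SE 0.22, adjusted p = 0.0199). Of 15 chromatin regulators mutated in human MB, 3 were higher and 0 lower, *Kmt2d* by 0.70, *Kmt2c* by 0.52 and *Brpf1* by 0.35. All 5 of these calls were lost without GNP sample 3, with adjusted p-values of 0.088 to 0.181. Of 15 primary cilium genes, 1 was higher (*Cc2d2a*, 0.74) and 1 lower (*Ift57*, -0.63), near the shares of all genes (7.12% and 12.1%). The plot of every list's members shows these lists around 0, with the vessel, meningeal, choroid plexus, motile cilium and GABAergic lists far below it.

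**Figure D5:**
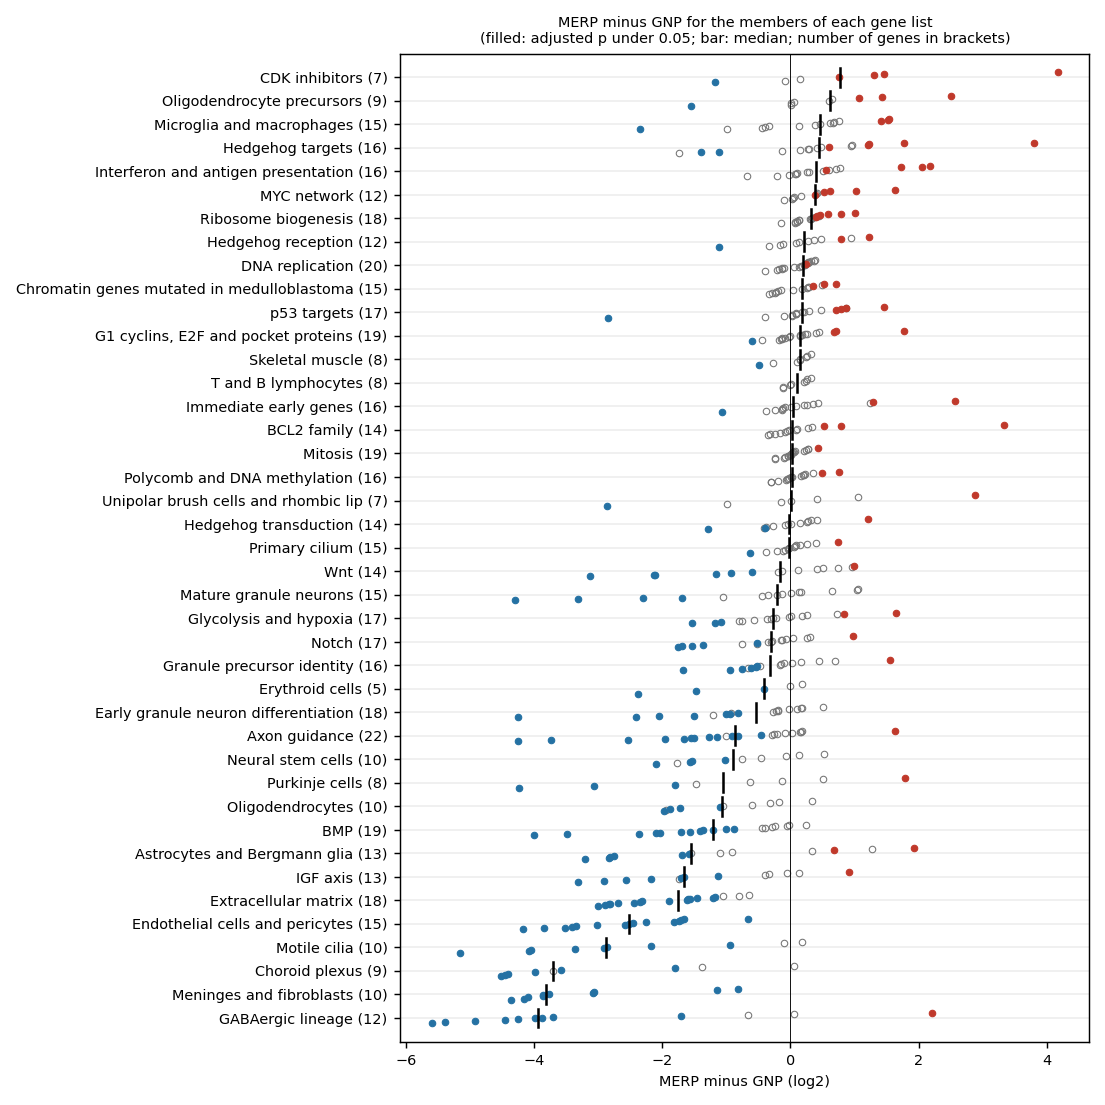
Difference in expression, MERP minus GNP (log2), for each measured member of each gene list, sorted by the median (black bar), with the sex chromosome genes and the study's own Hedgehog list not drawn. Filled points passed the test, red for higher and blue for lower. CDK inhibitors have the highest median at 0.77 and, of the cell type lists, the GABAergic lineage has the lowest at -3.93.

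Over all lists, 545 different genes were measured and 216 were called, where 19.2% of all genes were. The lists were chosen with earlier results of these data known, so this count is a description. The MERP tumours differed among themselves at several of the genes above. Tumour 5 had the lowest *Sox2*, *Id4*, *Cadps2* and *Atoh1* and the highest *Igf2*, *Foxp2* and *Foxa2*. Tumour 1 had the lowest *Cdkn2a*, *Jchain* and *Mroh2a* and the highest *Skor1*. Tumours 2 to 4 shared higher *H2-Aa* and *Ctss*, at 10.15, 11.28, 11.41, 11.25 and 10.37 over the 5 tumours for *Ctss*. Each of these values comes from 1 tumour.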

How the data were processed

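Total RNA of MERP tumours and GNPs was measured on Affymetrix mouse arrays. The authors made the deposited values with RMA in Affymetrix Expression Console 1.3.1, and these log2 values were used as deposited, with no raw intensities. Platform annotation assigned 34958 of 45101 probe sets to 1 gene symbol, 932 to several and 9211 to none. Of these, 1 probe set per gene, that with the highest mean over 23 arrays, left 18194 genes. A linear model with 6 groups over the 23 arrays was fitted in limma 3.58.1 (R 4.3.3), and Benjamini-Hochberg adjustment ran over all 18194 genes. Electroporated and transfected CRISPR tumours counted as 1 group. Named genes were, by rule, all measured members of the Hedgehog and CDK inhibitor lists, up to 4 members of each other list with the largest absolute difference, the markers *Atoh1*, *Pax6*, *Zic1* and *Barhl1*, and the 12 highest and 12 lowest called genes whose groups did not overlap and whose higher group had a mean above the median gene. The members and gene lists were chosen with earlier results of these data known. The fit was tested on simulated data. Array controls were compared by exact permutation of 8 arrays (56 arrangements). Alternatives were other centring, another quantile normalization, other probe set rules, a filter on dim genes and other variance models. Further ones were separate groups for the electroporated and transfected CRISPR tumours, fewer arrays, a replicate block and leaving out each array. Leaving out tumours 3 and 4 together was added after seeing the data, as were narrower sets of control probe sets. The number of arrays limits the precision. Promoters came from RefSeq (GRCm38.p6).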

Additional observations from a re-analysis of the deposited data

Results flagged for a closer look

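A tumour was marked when its gap to the nearest other tumour, divided by the range of the 5 MERP tumours, exceeded Dixon's limit of 0.71. Of the 209 genes named by rule, 11 (5.26%) had such a tumour, and chance alone marks about 1 group in 20. Tumour 5 stood apart for *Id4* (3.58 against 7.30 to 8.17, ratio 0.812), *Sox2* (6.79 against 8.79 to 9.46, ratio 0.749), *Foxp2* (10.88 against 9.30 to 9.61, ratio 0.803), *Sema3a* (7.12 against 5.76 to 6.0, ratio 0.825) and *Evc2* (8.80 against 8.16 to 8.32, ratio 0.757). Tumour 3 was lowest for *Krt12* (6.92 against 10.07 to 10.94, ratio 0.784), *Lef1* (5.50 against 5.96 to 6.04, ratio 0.856) and *Gnas* (12.77 against 13.07 to 13.19, ratio 0.730). Tumour 1 was lowest for *Mroh2a* (8.28 against 10.20 to 10.91, ratio 0.731) and *Mab21l1* (10.30 against 10.42 to 10.43, ratio 0.905) and highest for *Skor1* (7.29 against 4.85 to 5.41, ratio 0.771). Causes were not tested.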

How the results depend on the processing

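Without any 1 array, 2530 to 3676 genes were called, 777 to 1421 higher and 1753 to 2255 lower, with a higher share of 30.3% to 38.7%. The lowest counts of higher genes came without GNP sample 2 (777) and GNP sample 3 (778). Of the 150 called named genes, 30 lost the call without at least 1 array and 25 without tumours 3 and 4 together, an alternative under which 2479 genes were called, 779 higher and 1700 lower. The 3493 genes called became 7854 after centring on the 18194 genes (6201 higher, 79.0% of them all), 6228 with array weights (2867 higher, 3361 lower) and 1556 at 2-fold or more (298 higher, 1258 lower, 19.2% higher). No paired reading of the replicate numbers was made, since same-numbered arrays did not deviate together (r = -0.255, -0.036 and -0.222) and no label pairs them. With the replicate block on the arrays compared alone, 2375 genes were called, 606 higher and 1769 lower (25.5% higher), and *Gli1* lost its call (adjusted p = 0.0618). Of 63 named genes called against *Ptch1*+/- tumours, 32 differed at least 2-fold. Taking the probe set with the highest SD reversed *Gsk3b* (0.32), *Lrp2* (-0.58) and *Mga* (-0.29). The spike-in difference of 1.05 was 0.827 to 1.238 without 1 array, where the exact p cannot pass the threshold of 0.05. The causes were not tested.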
